A study of Mus musculus with 4 samples.

Results

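The genes described here divide 4 astrocyte cultures into pairs: olfactory bulb and hippocampus on one side, subventricular zone and ventral mesencephalon on the other. Each culture was measured on 1 Affymetrix mouse array. A gene was counted as split when both arrays of one side lay above both arrays of the other, so the members were chosen by their measured signals and their side is a description with no test. Of 12394 named genes, 7988 had a signal above the floor of 122 (the median of all signals) on at least 1 array. Among these 7988, 2986 were split. Olfactory bulb and hippocampus were the higher side in 1631 genes (20.4%), and subventricular zone and ventral mesencephalon in 1355 (17.0%).

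The cultures were labelled primary astrocytes of the CD-1 mouse strain, an outbred stock, from pups at postnatal day 3. They differed by the dissected brain region. All were dissociated, plated in DMEM with 10% FBS, shaken at 200 rpm to enrich astroglia, replated as monolayers and kept in the same medium until RNA extraction, and no group received a further treatment. The design text names 4 littermate pups and then speaks of pooling tissue from 3, which was not settled here. With 1 array per region, and different regions on each side, the arrays of a side are not replicates, and no difference had a replicate check.

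Monolayers grown from neonatal brain can hold microglia, the resident macrophages of the brain, besides astrocytes, and shaking is used to detach loosely held cells. Interferons act through STAT and IRF factors on antiviral and antigen presentation genes, and NF-kB drives chemokine and cytokine genes. Immediate early genes are transcribed within minutes of a growth factor or stress signal. The integrated stress response halts most translation and, through the factor ATF4, induces genes of amino acid supply and cell fate.

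The promoter stretches below belong to genes that the results turn on, 2 for each of 5 motifs, and show the letters by which a family of factors is usually recognised. They come from RefSeq, build GRCm38.p6, read 5′ to 3′ on the strand of the gene, and end upstream of the transcription start. The capitals mark the matches on either strand, with up to 30 bases on each side. Both interferon-induced genes Ifit1 and Ifit3 held 3 matches to GAAANNGAA, the repeat of the interferon-stimulated response element (ISRE), and 2 of those in Ifit1 share bases. The Ifit1 stretch is chr19:34640750-34640843 (plus strand) and the Ifit3 stretch chr19:34583344-34583465 (plus strand).

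Ifit1: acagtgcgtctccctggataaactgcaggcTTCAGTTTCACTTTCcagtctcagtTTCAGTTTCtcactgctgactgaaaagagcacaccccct

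Ifit3: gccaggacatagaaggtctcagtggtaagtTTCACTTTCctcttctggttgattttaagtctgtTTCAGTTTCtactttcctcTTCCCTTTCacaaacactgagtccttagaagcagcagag

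Cxcl1 and Cxcl2, neutrophil chemokines, each held 2 matches to GGNNTTTCC, the NF-kB motif. The stretches are chr5:90891126-90891213 (plus strand) and chr5:90903773-90903860 (plus strand).

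Cxcl1: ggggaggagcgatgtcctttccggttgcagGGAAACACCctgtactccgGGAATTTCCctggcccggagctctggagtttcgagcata

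Cxcl2: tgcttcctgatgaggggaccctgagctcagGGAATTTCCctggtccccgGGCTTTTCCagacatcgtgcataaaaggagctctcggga

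Maff, a small Maf factor, and Dusp1, a MAP kinase phosphatase, held the cyclic AMP response element (CRE) TGACGTCA. Their stretches are chr15:79347461-79347519 (plus strand) and chr17:26508578-26508645 (minus strand).

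Maff: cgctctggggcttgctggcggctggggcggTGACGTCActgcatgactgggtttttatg

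Dusp1: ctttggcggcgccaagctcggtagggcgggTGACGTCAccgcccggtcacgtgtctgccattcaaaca

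Chac1, which degrades glutathione, and Atf3, a stress-induced factor, held TGATGCAA, a C/EBP-ATF response element (CARE), on the other strand. The stretches are chr2:119351019-119351086 (plus strand) and chr1:191183406-191183473 (minus strand).

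Chac1: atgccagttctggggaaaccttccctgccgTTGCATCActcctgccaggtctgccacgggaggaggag

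Atf3: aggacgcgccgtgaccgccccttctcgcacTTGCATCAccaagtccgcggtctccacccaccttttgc

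C1qc, a chain of complement C1q, and Ctsc, the lysosomal protease cathepsin C, held GAGGAAGT, the motif of the myeloid factor PU.1, on the other strand. The stretches are chr4:136893072-136893139 (minus strand) and chr7:88277904-88277971 (plus strand).

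C1qc: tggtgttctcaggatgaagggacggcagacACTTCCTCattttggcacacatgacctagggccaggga

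Ctsc: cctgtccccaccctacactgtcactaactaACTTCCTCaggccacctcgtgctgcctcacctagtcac

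Before the results, 3 features of the arrays stood beside the split. All 18 probe sets for the bacterial hybridisation controls, which are added to the labelled RNA in fixed amounts, were split too, with subventricular zone and ventral mesencephalon higher. Their geometric mean signals were 1816 in subventricular zone, 1551 in ventral mesencephalon, 1282 in olfactory bulb and 1074 in hippocampus, a median side difference of -0.51 on the log2 scale. A side difference is the mean of olfactory bulb and hippocampus minus the mean of the other pair, and its median over the 7988 genes was 0.05. Scaling the arrays to these controls instead moved that median to 0.50 and gave 4365 genes higher in olfactory bulb and hippocampus against 285 on the other side. The part of the hybridisation level in the split was not tested. The ratio of 3′ to 5′ signal of beta-actin, a sign of RNA integrity, was 1.46, 1.49, 1.30 and 1.27 in the same order of regions, and its part was not tested either. The same ratio of Gapdh was 0.912, 0.876, 0.917 and 0.856 and did not divide the pairs. The third feature is the myeloid marker list, whose 52 measured members had summed signals of 2525 and 2975 in subventricular zone and ventral mesencephalon, and of 61329 and 75888 in olfactory bulb and hippocampus. Above the floor were 5 and 6 of these members in the former pair and 42 and 45 in the latter, and none was at 0 on any array.

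Many splits were small. The gap, the distance between the nearest arrays of the opposing sides, stayed under 0.19 on the log2 scale in 748 of the 1631 and in 595 of the 1355 genes. That value is an estimated spread of the side difference for 1 probe set. It was taken from the disagreement between 2 probe sets of a gene, over 1979 genes, whose own spread is larger. A gap of at least 1, that is 2-fold, was reached by 131 genes higher in olfactory bulb and hippocampus (1.64%) and by 120 genes higher in subventricular zone and ventral mesencephalon (1.50%). Signals are given below first for subventricular zone, then for ventral mesencephalon, olfactory bulb and last hippocampus, and each fold is the gap, written as "at least" where the nearest low signal was under the floor. Just inside the 2-fold limit lay the nuclear RNA Neat1 (198, 368, 738 and 3986) and the complement protease C1ra (1002, 934, 465 and 364), and just outside it the centromere gene Cenpx (174, 168, 368 and 346) and the hexokinase Hk2 (1109.7, 857, 247 and 429.7). Nearest to a gap of 0, Abcb6 (216.7, 110.6, 216.8 and 256.7) and Cul2 (603.8, 610, 603.7 and 540.7) were counted and Chmp6 (326.5, 333, 332.9 and 407.4) and Mocs2 (1827, 1556.9, 1557.2 and 1110.2) were not.

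**Figure D1:**
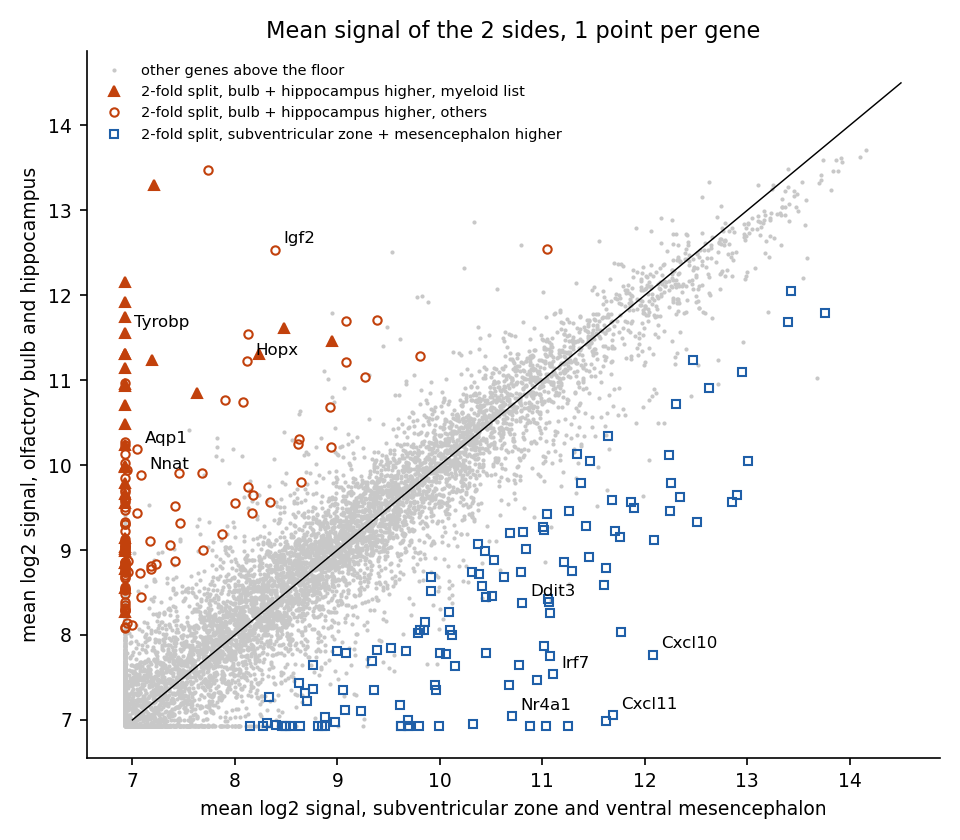
Each point is 1 of 7988 genes, with the mean log2 signal of subventricular zone and ventral mesencephalon on the horizontal axis and that of olfactory bulb and hippocampus on the vertical axis, and the line marks equal signal. The 131 genes with a 2-fold gap toward olfactory bulb and hippocampus lie above the line, many at the floor of the horizontal axis, and the 120 with a gap the other way lie below it.

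Myeloid genes led the side of olfactory bulb and hippocampus. Lyz2, macrophage lysozyme, had signals of 179, 82.3, 11249 and 9016, a gap of 50.4-fold. Csf1r, the receptor that keeps microglia alive, had 55.6, 90.9, 4073 and 5099, at least 33.4-fold. C1qa, another chain of C1q, had 1.5, 1.5, 3325 and 3527, at least 27.2-fold. For these 3 genes olfactory bulb and hippocampus lay close together and far above the other pair. The signalling adaptor Tyrobp had 20.7, 0.8, 2940.2 and 3061, at least 24.1-fold. Of 45 markers above the floor, 41 were split toward olfactory bulb and hippocampus, 33 of them by 2-fold, and 0 the other way. Over all genes these shares were 20.4%, 1.64% and 17.0%. Most of the 45 were under the floor in subventricular zone and ventral mesencephalon, so they entered the count through the high side. Such genes could not split the other way. In cultures measured as a whole, fewer cells of a type and less RNA per cell cannot be told apart.

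Outside that list, immune cell machinery was on the same side. Of 27 Fc receptor and ITAM signalling genes not in the marker list, 19 were split toward olfactory bulb and hippocampus, 8 by 2-fold. Over all genes these shares were 20.4% and 1.64%. Clec4d, a lectin receptor of phagocytes, had signals of 22.1, 10.3, 1389 and 2869.7, at least 11.4-fold, and was highest in hippocampus. The inhibitory receptor Fcgr2b had 30.8, 31.7, 462 and 1829, at least 3.78-fold. Ptpn6, the phosphatase of inhibitory receptors, had 26.6, 6.9, 454 and 879, at least 3.72-fold. In both, hippocampus again exceeded olfactory bulb. Of 20 leucocyte cytoskeleton and adhesion genes not in the marker list, 15 were split this way, 6 by 2-fold, against the same shares of all genes. Fermt3, the blood cell kindlin that activates integrins, had 6.8, 4.3, 740.5 and 1476, at least 6.06-fold. The GTPase Rac2 had 39.5, 12.3, 552 and 1105, at least 4.52-fold, and the actin regulator Nckap1l had 20.6, 17.4, 488 and 574. Each gene named so far in this paragraph was under the floor in subventricular zone and ventral mesencephalon. Such a gene enters the counts through the high side and can split this way only. Lyz1, the near-identical copy of Lyz2, had 303, 150.4, 12646 and 10172, and the probe sets of the pair may share RNA.

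In all, 48 of the 131 genes belonged to the myeloid or haematopoietic lists, and 83 did not. Of the latter, 40 were in lists of other functions and 43 in none. Several of the 83 are known from macrophages even so. Fcrls, a microglial Fc receptor-like gene, had signals of 14.4, 13.4, 1165 and 1301, at least 9.54-fold. Adam8, a metalloprotease of leucocytes, had 49.2, 45.9, 936 and 1341, at least 7.67-fold. Ms4a6b, a 4-pass membrane gene of immune cells, had 16.5, 15.9, 518 and 1101, at least 4.24-fold. The lists thus do not hold every gene known from these cells.

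Phagocyte functions had members on this side as well. Of 46 lysosomal hydrolases above the floor, 19 were split toward olfactory bulb and hippocampus and 4 the other way, against 20.4% and 17.0% of all genes, with a median side difference of 0.32. Unlike most of the markers, most of these genes were above the floor in every culture: 43, 45, 45 and 46 of 47 measured. Ctsc had 585, 505, 2099 and 5255, 3.59-fold, with hippocampus highest. The glucuronidase Gusb had 551, 696, 1858 and 2393, 2.67-fold. Cathepsin D, an abundant hydrolase, had 7351, 6790.4, 7808 and 6932 for Ctsd and was not split. Of 33 lysosomal membrane and proton pump genes, 9 were split toward olfactory bulb and hippocampus and 5 toward the other pair. These counts are not far from the shares of all genes, and the median side difference was 0.11. The metal transporter of phagosomes Slc11a1 had 47.9, 37.4, 387 and 777, at least 3.17-fold. The peptide transporter Slc15a3 had 53.9, 19.6, 299 and 849, at least 2.45-fold. These were the 2 members with a 2-fold gap. The summed signal of the 47 measured hydrolases was 84214, 86216, 95127 and 97718, a much smaller difference than that of the myeloid markers. The part of the myeloid markers in the lysosomal values was not tested.

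Oxidant, complement and lipid mediator genes had few members above the floor. Of 8 phagocyte oxidase and oxidant genes, 5 were split toward olfactory bulb and hippocampus and 1 the other way, against 20.4% and 17.0% of all genes. The oxidase subunit Ncf1 had 16.7, 0.9, 254 and 544, at least 2.08-fold. Of 15 prostaglandin and leukotriene genes, 3 were split toward olfactory bulb and hippocampus and 2 the other way, with a median of 0.0746, near the shares of all genes. Alox5ap, which activates 5-lipoxygenase for leukotriene synthesis, had 28.7, 20.8, 904 and 1616, at least 7.4-fold. Pla2g7, which inactivates platelet-activating factor, had 90.3, 644, 2484 and 3593, 3.86-fold, and ventral mesencephalon was above subventricular zone. The complement list had 5 of 15 (33.3%) split toward olfactory bulb and hippocampus and 2 (13.3%) toward the other pair. The former share is above that of all genes and the latter below it, on small counts. C3ar1, the receptor for C3a, had 29.2, 31.7, 679 and 742, at least 5.56-fold, toward olfactory bulb and hippocampus. Properdin, encoded by Cfp, had 37.1, 4.5, 377 and 1059, at least 3.09-fold. The proteases of C1 were higher in the other pair, where C1s1 had 1491, 1311, 312 and 388, 3.38-fold. Of 23 scavenger and engulfment receptors, 5 were split in each direction, near the shares of all genes. A 2-fold gap was reached by 2 toward olfactory bulb and hippocampus and 0 the other way. Mertk, a receptor for engulfing dying cells, had 85.6, 64.1, 288 and 370.5, at least 2.36-fold. Marco, a scavenger receptor, had 50.4, 2.7, 283 and 2169.7, at least 2.32-fold, with hippocampus far above olfactory bulb. The 4 MHC class II genes above the floor were not split.

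**Figure D2:**
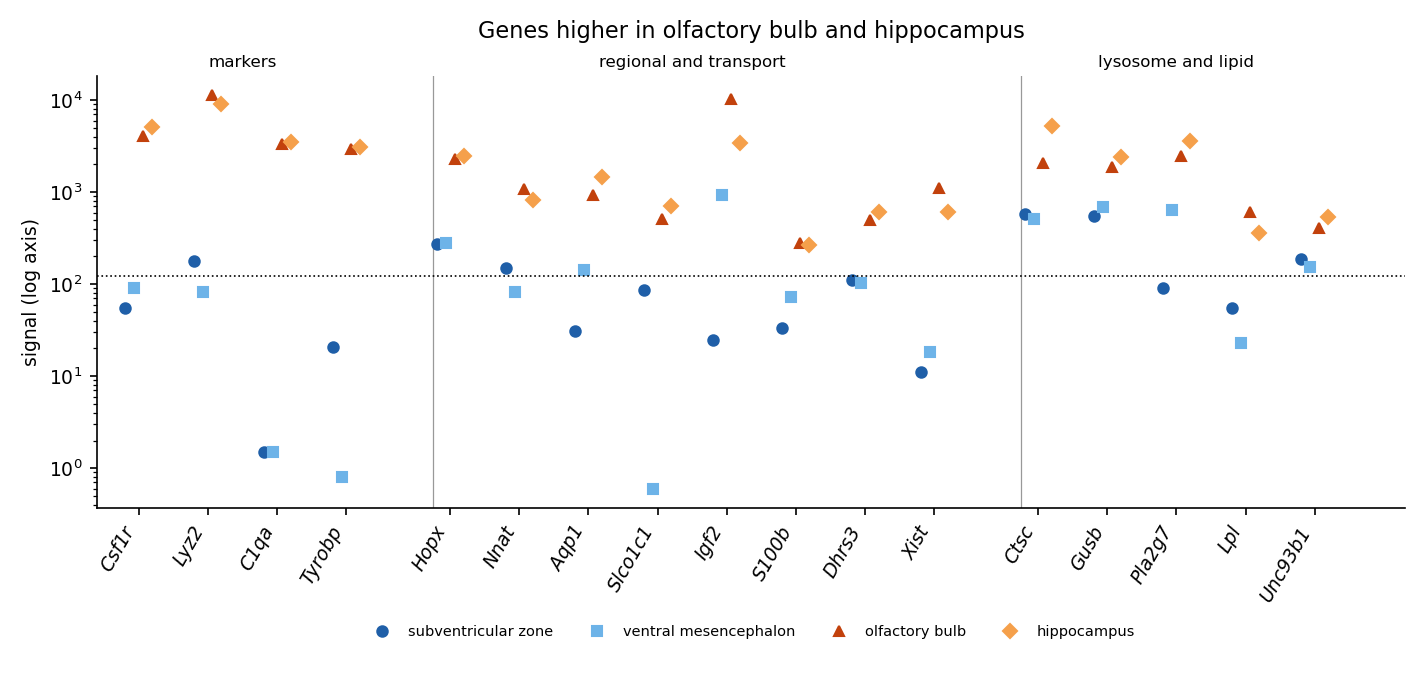
Signals of 17 genes on the 4 arrays, on a log axis with the floor of 122 as a dotted line and 1 symbol per region. In each gene the symbols of olfactory bulb and hippocampus lie above those of the other pair, while Ctsc, Gusb, Hopx and Unc93b1 are above the floor on all arrays.

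A smaller set on this side is known mainly from other cells. Hopx, a homeodomain-only cofactor present in radial glia and astrocytes, had signals of 272, 283, 2300.2 and 2489, 8.12-fold. The values within each side nearly coincided. Hopx belongs to the radial glia and progenitor list, of which 3 of 23 genes above the floor were split this way and 8 the other way. Nnat, neuronatin, an imprinted gene of developing brain, had 152, 82.4, 1091 and 814, 5.37-fold. Dhrs3, a retinaldehyde reductase, had 109.9, 103, 498 and 603, at least 4.08-fold. S100b, a calcium-binding protein widely used as an astrocyte marker, had 33.6, 73, 277 and 269, at least 2.21-fold. Dhrs3 and S100b were under the floor in subventricular zone and ventral mesencephalon. S100a4, of the S100 family, which macrophages and fibroblasts also make, had 531, 554, 1918 and 2927, 3.46-fold. Its signals were well above the floor in every culture. Ctla2b, a cysteine protease inhibitor gene, had 12.3, 4.4, 1133 and 621, at least 5.09-fold. The last was highest in olfactory bulb.

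Choroid plexus and transport genes were found on this side too. Aqp1, the water channel of choroid plexus epithelium, had 31, 142, 929 and 1457, 6.54-fold. Slco1c1, a thyroxine transporter of brain barriers, had 85.4, 0.6, 507 and 707, at least 4.15-fold. Igf2, a growth factor made by choroid plexus and meninges, had 24.6, 928, 10268 and 3441, 3.71-fold. Its 1 other probe set above the floor was not split, though its side difference had the same sign. Within each side Igf2 varied widely: ventral mesencephalon was far above subventricular zone, and olfactory bulb above hippocampus. Of 9 genes of the choroid plexus list above the floor, 4 were split this way and 0 the other way, with a median side difference of 1.42. Over all genes these shares were 20.4% and 17.0%. Its 15 measured members summed to 563, 1717, 12111 and 17263, with 0, 5, 4 and 8 of them above the floor. Igf2 made up most of the olfactory bulb sum. Ttr, the transthyretin that choroid plexus secretes, had 11.2, 1, 88.1 and 8959.7, high in hippocampus alone, and was not split. Like Mmp12, Vcam1 and Ptx3 below, it was named after its values were seen. A part of choroid plexus cells in these values was not tested. Slc15a2, a peptide transporter, had 277, 236, 680.1 and 834, 2.46-fold. The calcium-activated potassium channel Kcnn4, which microglia also make, had 20.8, 23.4, 329 and 344, at least 2.69-fold. Trpv2, a cation channel, had 41.8, 148, 574 and 315, 2.12-fold. Of 129 solute carriers above the floor, 24 were split toward olfactory bulb and hippocampus and 20 the other way, shares near those of all genes.

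Xist, which coats and silences an X chromosome in females, had signals of 11, 18.3, 1109.5 and 606, at least 4.96-fold, and its other 2 probe sets had the same order of sides, though hippocampus was under the floor in 1 of them. The Y-linked gene Eif2s3y had 219, 252, 18.7 and 271. Olfactory bulb alone lay under the floor for Eif2s3y, so that gene was not split, and the sexes of the pups are not stated in the labels. Whether the sex makeup of the cultures has a part in other splits was not tested.

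On the side of subventricular zone and ventral mesencephalon, 47 of the 120 genes with a 2-fold gap belonged to 6 response lists (interferon, immediate early, NF-kB, chemokine, cytokine and protein stress), against 4 of the 131 on the other side. The 6 were picked by hand from the 65 lists. In the order given they held 48, 29, 28, 21, 17 and 36 of the 7988 genes above the floor. Since these are a small part of all genes, the 4 of the 131 are not read as few. Of the 120, 1 gene, Nr4a1, was in a myeloid or haematopoietic list. The marker list and the 3 haematopoietic lists, which overlap, held 45, 29, 24 and 16 of the 7988 genes. That 1 is thus not read as few either. Among the 6 lists, the interferon list had the highest share of split members. Of its 48 genes, all above the floor, 40 were split toward subventricular zone and ventral mesencephalon, 16 by 2-fold, and 0 the other way, with a median side difference of -1.42. Over all genes these shares were 17.0%, 1.50% and 20.4%. Irf7, the factor that amplifies the interferon response, had signals of 1714, 2810.5, 133 and 261, 6.56-fold. Gbp6, a guanylate-binding GTPase, had 1581, 2481, 131 and 238, 6.66-fold. The antiviral RNA-binding gene Ifit3 had 4107, 8274, 568 and 733, 5.6-fold. In each, ventral mesencephalon was highest and olfactory bulb lowest. Rsad2, viperin, had 2331, 5230.1, 138 and 498, 4.68-fold. Igtp, an immunity-related GTPase, had 1836, 2467, 300.1 and 391, 4.7-fold. Ifit1, whose promoter is shown above, had 3388, 8007, 796 and 783, 4.26-fold. Antigen presentation genes had smaller gaps. The peptide transporter Tap1 had 429, 779, 248 and 189, 1.73-fold. B2m, the light chain of MHC class I, had 11946, 12200, 7314 and 7268, 1.63-fold, and was no longer split with the arrays scaled to the hybridisation controls. Among class I heavy chains, H2-D1 was split by 2-fold, but 3 of its 6 other probe sets lay on the opposite side, and members of that family may share RNA. Psmb8, a subunit of the immunoproteasome, had 1543, 1763, 601 and 577, 2.57-fold. Under that scaling 24 of the 48 genes were split toward subventricular zone and ventral mesencephalon and 0 the other way, and 10 of the 16 kept a 2-fold gap. The summed signal of the list was 88380, 131816, 37468 and 36710, so that its high side was the low side of the myeloid list.

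Many chemokine and NF-kB genes were on that side too, and a few were on the other. Of 21 chemokines above the floor, 9 were split toward subventricular zone and ventral mesencephalon, 6 by 2-fold, and 3 the other way. These are 42.9%, 28.6% and 14.3%, against 17.0%, 1.50% and 20.4% of all genes. Cxcl11, a ligand of CXCR3 on T cells, had signals of 2496, 4355, 13 and 145, 17.2-fold, the widest gap of the 120 genes. Its 1 other probe set above the floor was not split, though its side difference had the same sign. Cxcl10, a ligand of the same receptor, had 3661, 5090, 114 and 389, 9.41-fold. Ccl5, which attracts T cells and monocytes, had 1239, 4803, 92.5 and 83.7, at least 10.1-fold. Olfactory bulb and hippocampus were near or under the floor for Cxcl11 and Ccl5. Cxcl1 had 6560.1, 8283, 667 and 854, 7.68-fold. Cxcl2 had 2415, 816, 60.4 and 401, 2.04-fold. The monocyte attractant Ccl2 had 8504, 6872, 372 and 1739, 3.95-fold. Hippocampus lay above olfactory bulb in these 3. The 1 chemokine with a 2-fold gap the other way was Ccl9, a macrophage chemokine, at 41.2, 99.5, 394 and 1054. Scaled to the hybridisation controls, 5 of the 6 chemokines higher in subventricular zone and ventral mesencephalon kept a 2-fold gap.

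Of 28 Toll-like receptor, inflammasome and NF-kB genes, 17 were split toward subventricular zone and ventral mesencephalon, 6 by 2-fold, and 5 the other way. These are 60.7%, 21.4% and 17.9%, against 17.0%, 1.50% and 20.4% of all genes. Nfkbiz, a nuclear cofactor of NF-kB, had 3719.7, 5113, 400.5 and 769, 4.84-fold. Tnfaip3, the A20 enzyme that restrains the pathway, had 579, 1069.9, 0.5 and 37, at least 4.74-fold. The inhibitor Nfkbia had 9976, 8959.6, 2818 and 4558, just short of 2-fold. Feedback inhibitors and activating members were thus found on the same side. The subunit Relb had 554, 529, 216 and 227, 2.33-fold. Casp4, a caspase that senses bacterial lipid, had 907, 1077, 141 and 206, 4.4-fold. Tnfaip2, a gene induced by TNF, had 1524, 1168, 351 and 503, 2.32-fold. Pycard, the inflammasome adaptor of myeloid cells, was the 1 member with a 2-fold gap the other way, at 168, 185, 415 and 985. Scaled to the hybridisation controls, 3 of the 6 genes higher in subventricular zone and ventral mesencephalon kept a 2-fold gap.

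Few cytokines were measurable. Of 17 above the floor, 5 were split toward subventricular zone and ventral mesencephalon and 3 the other way. These are 29.4% and 17.65%, against 17.0% and 20.4% of all genes, on small counts. Il6, a cytokine of the acute phase, had 649, 5495, 42 and 50.4, at least 5.32-fold, and ventral mesencephalon was far above subventricular zone. Lif, of the same cytokine family, had 1007, 682, 50.3 and 64, at least 5.58-fold. Csf1, the ligand of the receptor Csf1r, had 6356, 4004, 1787 and 1601, 2.24-fold. The ligand and its receptor were thus highest on opposite sides. Tgfb1, a suppressive cytokine, had 258, 305, 867 and 850, 2.79-fold in favour of olfactory bulb and hippocampus. The macrophage cytokine genes Il1b (26.1, 16.7, 50.4 and 46.2) and Tnf (33.8, 2.5, 96.8 and 263), named after their values were seen, were not split, and Il1b was under the floor on all 4 arrays.

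Of 29 immediate early genes above the floor, 20 were split toward subventricular zone and ventral mesencephalon, 11 by 2-fold, and 0 the other way, with a median side difference of -1.24. Over all genes these shares were 17.0%, 1.50% and 20.4%. Nr4a1, an orphan nuclear receptor, had signals of 1162, 2384, 92.9 and 144, 8.1-fold. Maff had 2009.5, 1521, 186 and 214, 7.1-fold. The AP-1 subunit Fosl1 had 662, 1188, 28.9 and 43.3, at least 5.42-fold. Olfactory bulb and hippocampus were under the floor for Fosl1 and near or under it for Nr4a1. Gadd45a, a growth arrest gene, had 2174, 2138, 229.7 and 409.7, 5.22-fold. Ier3, a survival gene, had 7374, 8507, 1911 and 2488, 2.96-fold. Dusp1 had 5507, 5867, 2651 and 2194, 2.08-fold. Egr1, a zinc finger factor named after its values were seen, had 11875, 12062, 6292 and 3552, 1.89-fold, and Fos had 6405, 6501, 4034 and 2852, 1.59-fold. Scaled to the hybridisation controls, 15 of the 29 genes were split this way and 3 the other way, and 5 of the 11 kept a 2-fold gap. Nfil3, a bZIP repressor outside the lists, had 2338, 1992, 209 and 222, 8.96-fold.

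**Figure D3:**
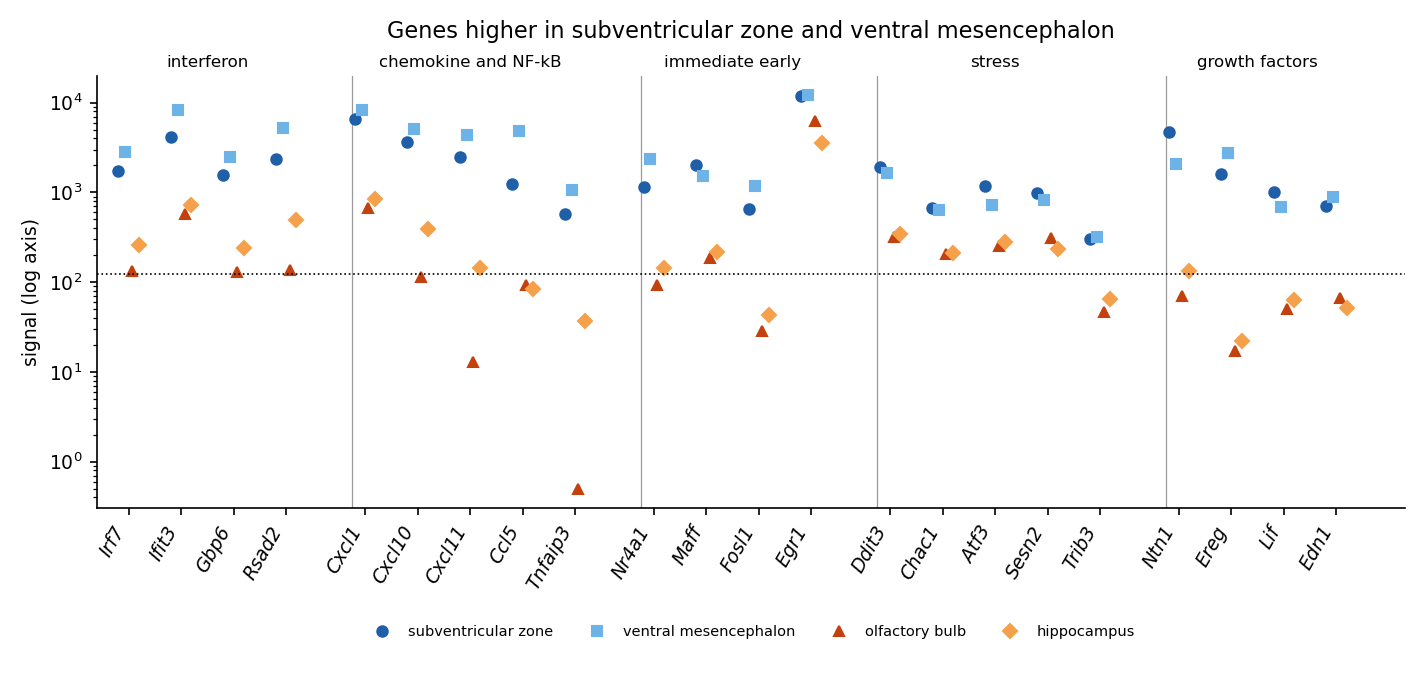
Signals of 22 genes on the 4 arrays, on a log axis with the floor of 122 as a dotted line and 1 symbol per region. In each gene subventricular zone and ventral mesencephalon lie above olfactory bulb and hippocampus, with gaps from 1.89-fold for Egr1 to 17.2-fold for Cxcl11.

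Protein stress genes were found on both sides. Of 36 heat shock and unfolded protein response genes, 13 were split toward subventricular zone and ventral mesencephalon, 5 by 2-fold, and 6 the other way. Over all genes these shares were 17.0%, 1.50% and 20.4%. The median side difference of the list was -0.08, or 0.44 with the arrays scaled to the hybridisation controls. The 5 with a 2-fold gap toward subventricular zone and ventral mesencephalon are known targets of ATF4 or its partners in the integrated stress response. Ddit3, the factor CHOP, had signals of 1919.7, 1666, 318 and 349, 4.78-fold. Chac1 had 663, 629.5, 205 and 210.5, 2.99-fold. Sesn2, a regulator of amino acid sensing, had 975, 827, 308 and 233, 2.69-fold. The members of each side lay close together in these 3 genes. Atf3 had 1173, 718, 253 and 282, 2.55-fold. The pseudokinase Trib3 had 299.8, 318, 46.7 and 65.2, at least 2.46-fold, and was under the floor in olfactory bulb and hippocampus. Atf4 itself had 3382, 3683, 2125 and 1241, 1.59-fold, and asparagine synthetase, Asns, had 1873, 1536, 983 and 678, 1.56-fold. Outside the list, Ppp1r15a, which reverses the translation block, had 3149.9, 2502, 586 and 397, 4.27-fold. These 3 were named after their values were seen. Among chaperones of the endoplasmic reticulum, Hspa5 had 6324, 7740.1, 6943 and 5816 and Calr 5473, 6959, 7057 and 5561, and neither was split, though under that scaling both were higher in olfactory bulb and hippocampus. Sdf2l1, a cofactor of Hspa5, had 99.9, 151, 349.9 and 349.8, 2.32-fold higher in olfactory bulb and hippocampus, and the co-chaperone Dnajc3 had 513, 589, 1020.4 and 1460, in the same order. Hspa5, Calr and Dnajc3 were also named after their values were seen. Under the same scaling, 2 of the 5 genes with a 2-fold gap toward subventricular zone and ventral mesencephalon kept that gap.

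Axon guidance genes and secreted factors went both ways. Of 34 axon guidance genes above the floor, 5 were split toward each side, 2 of them by 2-fold in each direction. Over all genes, 20.4% were split toward olfactory bulb and hippocampus and 17.0% toward the other pair. The split shares of this list, and of the neurotrophic and metalloproteinase lists below, were near these or lower. Ntn1, the axon guidance factor netrin 1, had signals of 4729.6, 2085, 69.6 and 132, 15.8-fold. Its receptor Unc5b had 351, 287, 128 and 91.6, 2.23-fold. Sema4d and Plxnc1, of the semaphorin and plexin families, were split the other way, at 101, 63.6, 248 and 389 and at 98, 50.5, 305 and 322. Of 26 neurotrophic and mitogenic factors, 5 were split toward each side, 3 by 2-fold toward subventricular zone and ventral mesencephalon and 1, Igf2, the other way. Ereg, an EGF receptor ligand, had 1604, 2738, 17.2 and 21.9, at least 13.1-fold. Another, Hbegf, had 5029, 2887, 419.7 and 1235, 2.34-fold, with hippocampus above olfactory bulb. Bdnf, brain-derived neurotrophic factor, had 598, 1145, 134 and 122, 4.45-fold. Edn1, endothelin 1, which acts on astrocyte receptors, had 702, 884, 66.9 and 51.2, at least 5.75-fold. The matrix protein Fbln2 had 772, 2130.2, 125 and 117, 6.18-fold. For Ereg, Bdnf, Edn1 and Fbln2, ventral mesencephalon exceeded subventricular zone. Of 15 matrix metalloproteinase genes, 2 were split toward each side. The matrix protease Mmp3 had 1441, 2981, 305 and 179.8, 4.73-fold, and Adamts1 had 1298, 1351, 507 and 575, 2.26-fold, while the macrophage elastase Mmp12 had 20.2, 25.3, 356 and 402, at least 2.92-fold higher in olfactory bulb and hippocampus. Of 33 TGF-beta, BMP and activin genes, 13 were split toward subventricular zone and ventral mesencephalon and 3 the other way. The activin antagonist Fst had 253, 486, 64.4 and 52.6, at least 2.07-fold. The transducer Smad2 had 429, 404, 104 and 181, 2.22-fold, and the inhibitor Smad7 had 652, 1022, 324 and 156, 2.01-fold. Scaled to the hybridisation controls, the median of this list turned from -0.37 to 0.05, and its 3 genes lost the 2-fold gap. Ptgs2, the inducible cyclooxygenase, had 1029, 6113, 479 and 392, 2.15-fold, and ventral mesencephalon was far above the other 3 cultures. Of 25 cell death genes, 10 were split toward subventricular zone and ventral mesencephalon and 6 the other way, counts that became 5 and 12 under that scaling. Bid, which links caspases to mitochondria, had 1435, 824, 326 and 294, 2.53-fold, and the inhibitor of apoptosis Birc3 had 659.7, 682, 168 and 303, 2.18-fold.

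Housekeeping functions showed small gaps. Of 40 cytosolic ribosomal protein genes, 21 were split toward subventricular zone and ventral mesencephalon, 0 by 2-fold, and 1, Rps25, the other way, with a median side difference of -0.29 that turned to 0.23 when the arrays were scaled to the hybridisation controls. Of 21 glycolysis genes, 9 were split that way and 3 the other, with a median of -0.48 that turned to 0.03 under the same scaling. The platelet phosphofructokinase Pfkp had 832, 962, 2295 and 2690.4, 2.39-fold higher in olfactory bulb and hippocampus. Proteasome subunits had 17 of 37 split toward subventricular zone and ventral mesencephalon, with a median of -0.11 that turned to 0.40. Cholesterol synthesis had 7 of 22 split toward olfactory bulb and hippocampus and 0 the other way, with a median of 0.38. The respiratory chain had 12 of 64 and 1 of 64 (Cycs), with a median of 0.17. The 12 are 18.75%, near the 20.4% of all genes, while the 1 is below their 17.0%. In both lists the arrays within a side differed more. Olfactory bulb minus hippocampus had a median of -0.56 for cholesterol synthesis and 0.36 for the respiratory chain. Ventral mesencephalon minus subventricular zone had -0.68 and -0.33. None of the ribosomal, cholesterol and respiratory chain genes reached a 2-fold gap in either direction.

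**Figure D4:**
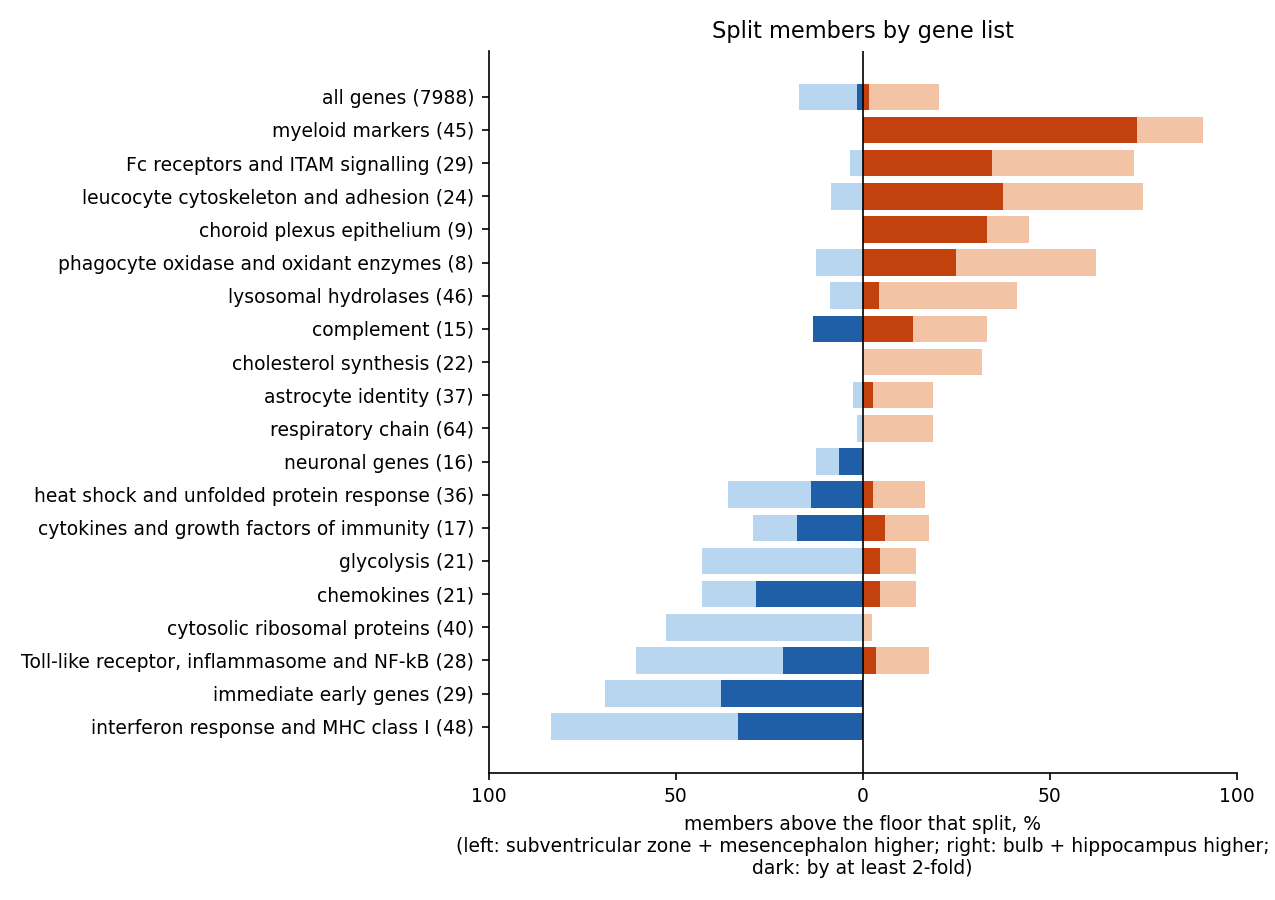
Bars give the percent of members above the floor (number in parentheses) that were split, to the right where olfactory bulb and hippocampus were higher and to the left where the other pair was, with gaps of at least 2-fold in dark colour. Myeloid markers reach 91.1% to the right and interferon genes 83.3% to the left, against 20.4% and 17.0% of all genes.

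Markers of neural, mesenchymal and vascular cells varied by list. Of 37 astrocyte identity genes, 7 were split toward olfactory bulb and hippocampus and 1, F3, the other way, near the share of all genes for the former side and below it for the latter. Gfap, the intermediate filament of astrocytes, had signals of 3112, 1007, 3800.2 and 10027, 1.22-fold. Aldh1l1, the folate enzyme used as an astrocyte marker, had 5106, 1711, 311 and 1727, and the glutamate transporter Slc1a3 had 2533, 641, 706 and 4328. Aqp4 (4916, 1956, 1574 and 3943), Glul (3356, 1736, 3948 and 2891) and Gja1 (2505, 5988, 9010.4 and 5549.5) were also measured on all 4 arrays and not split. Slc1a2, the other glial glutamate transporter, was under the floor on all 4. Of 23 radial glia and progenitor genes, 8 were split toward subventricular zone and ventral mesencephalon and 3 the other way, with a median side difference of -0.35, and these became 1, 3 and 0.0115 with the arrays scaled to the hybridisation controls. Vcam1, an adhesion gene of stem cells, had the 1 gap of 2-fold among the 8, at 7483, 3210.5, 593 and 1317, 2.44-fold. Of 22 reactive astrocyte genes, 5 were split toward subventricular zone and ventral mesencephalon and 1, Srgn, the other way, counts that became 1 and 5 under that scaling. The pentraxin Ptx3 had 7825, 8605, 635 and 1766, 4.43-fold. Fibroblast and meningeal genes followed another pairing, with summed signals of 29470, 95459, 117508 and 48305 over 40 genes, highest in olfactory bulb and ventral mesencephalon, and 2 of 34 were split, Ogn and Pdgfra. Of 16 neuronal genes above the floor, 2 were split toward subventricular zone and ventral mesencephalon and 0 the other way. The neuronal tubulin regulator Stmn2, with the only 2-fold gap among them, had 3465, 1331, 218 and 514. None of the 8 endothelial genes above the floor was split. Oligodendrocyte genes had 2 of 11 toward olfactory bulb and hippocampus, Cldn11 and Pdgfra, and 1 the other way, Nkx2-2. Smooth muscle and pericyte genes had 3 of 16 in each direction.

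**Figure D5:**
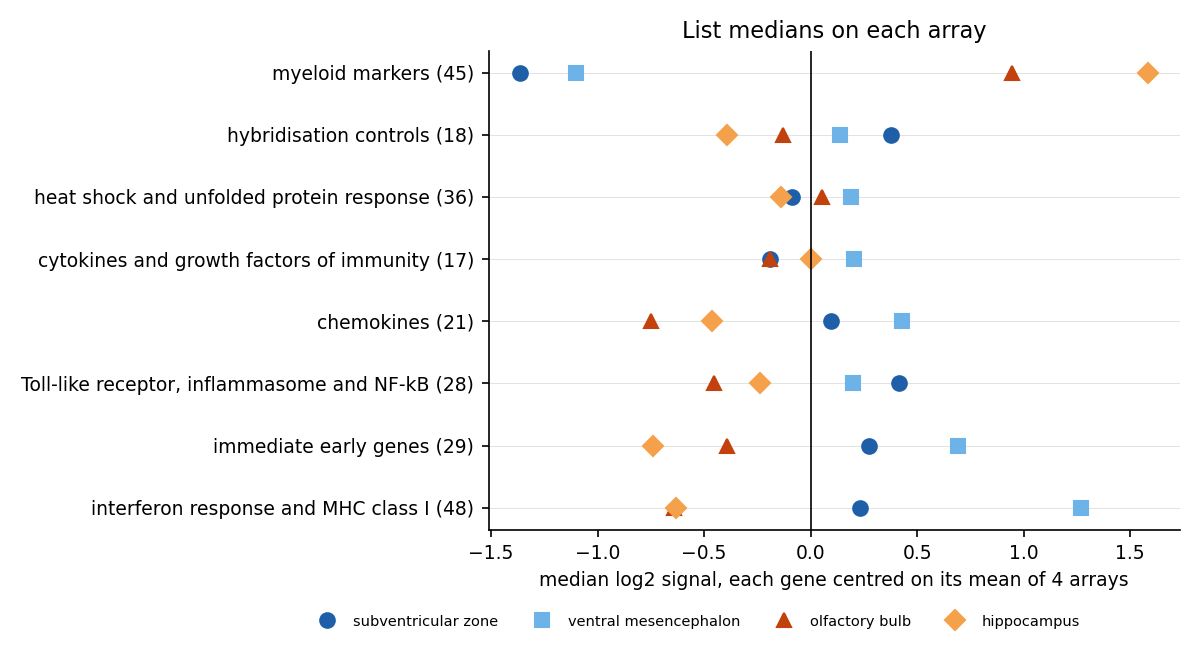
Each symbol is the median, over the genes of a list above the floor (number in parentheses), of log2 signal centred on each gene's mean of 4 arrays. Interferon genes run from -0.64 in olfactory bulb to 1.27 in ventral mesencephalon, myeloid markers from -1.36 in subventricular zone to 1.59 in hippocampus, and the hybridisation controls from -0.39 in hippocampus to 0.38 in subventricular zone.

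The levels within a side were not equal. Among the 131 genes the gap was larger than the difference within either side in 115, and among the 120 in 105. These genes were chosen for a wide gap, which favours such counts. Among all split genes it was so in 598 of the 1631 and in 516 of the 1355. In 81 of the 131, both low arrays were under the floor, so the order within the low side was not measured there, and this held for 19 of the 120. Hippocampus was above olfactory bulb for most of the 131, with olfactory bulb the higher in 39. Ventral mesencephalon was above subventricular zone in 64 of the 120. In the interferon list ventral mesencephalon exceeded subventricular zone by a median of 0.84 on the log2 scale. Other probe sets gave a further view of the same RNA. For 43 of the 131 genes, 64 other probe sets were above the floor, and 52 were split the same way and 0 the opposite way. For 38 of the 120, 51 of 60 were split the same way, and the 3 split the opposite way belonged to H2-D1.

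Promoter letters differed in how often they occurred. Windows of 250 bases upstream of the start were available for 101 of the 131 genes and 82 of the 120, and each motif was searched on both strands and on its own, so a base can lie in matches of more than 1 motif. GGNNTTTCC was present in 17 of the 82 (20.7%) and in 8 of the 101 (7.92%), against 5.62% of 27025 genes in the RefSeq table and 6.41% of the 6504 array genes above the floor with a window. Both backgrounds follow in that order for the other motifs. All 4 NF-kB list genes and all 3 chemokines with a window among the 82 held it. GAAANNGAA was present in 12 of the 82 (14.6%) and 14 of the 101 (13.9%), against 8.18% and 7.50%, and in 6 of the 13 interferon genes with a window. Thus that motif was about as frequent on either side. TGACGTCA was in 5 of the 82 (6.10%) and 2 of the 101 (1.98%), against 1.77% and 2.92%. TGATGCAA was in 3 of the 82 and 1 of the 101, against 0.918% and 0.738%, and 2 of those 3 are Chac1 and Atf3. GAGGAAGT was in 9 of the 101 (8.91%) and 0 of the 82, against 2.79% and 2.65%. Of the 21 myeloid markers with a window, 1 held it, C1qc. The AP-1 motif TGACTCA was in 8 of the 82 and 5 of the 101, against 5.16% and 4.27%. The lysosomal CLEAR motif TCACGTGA was in 2 of the 82 and 1 of the 101, against 0.907% and 1.97%. The C/EBP motif TTGCGCAA was in 1 of the 82 and 0 of the 101, against 0.185% and 0.261%. A match describes letters and is not a bound site.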

How the data were processed

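Biotinylated cRNA from 4 cultures was hybridised to 1 array per region. The deposited values are linear signal intensities of 22690 probe sets, made by the authors with GCOS 1.4 per the submitters' processing notes. On each array the mean after trimming 2% was about 400, so the arrays carry a global scaling, and the number of arrays limits the precision. Probe sets with 1 listed symbol (20393, of which 20364 matched a RefSeq gene ID) were used, 691 with several and 1542 with none were left out of gene counts, and 64 are controls.

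Signals under 122.1 were raised to that floor and taken to log2. A gene was represented by the probe set with the highest mean, which concerns 4958 genes with several. Splits, gaps and side differences follow from the 4 values, with Python 3.11.15, pandas 2.3.3 and numpy 2.4.6, and no p-value was computed. On simulated data, with changes well over 2-fold in genes far above the floor, the scripts recovered the changed genes in both directions. Changes near 2-fold, low signals at the floor and a shift between the sides were not simulated.

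The members, the 65 gene lists and the motifs were chosen with earlier results of these data known. The CRE, CARE, ISRE and NF-kB motifs, and the scaling to hybridisation controls, were chosen after seeing these values. Named genes are the markers, the 15 widest gaps in each direction outside the myeloid list, up to 5 members with the widest 2-fold gaps of each list with at least 2 such members outside the myeloid list, 7 astrocyte markers and the genes nearest each limit. Genes beyond that rule were named after their values were seen.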

Additional observations from a re-analysis of the deposited data

How the results depend on the processing

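The direction counts were within 1.5 times of the main ones when probe sets were averaged, when the probe set with the highest maximum stood for a gene, and when arrays were centred or quantile normalised. Main counts were 1631 genes higher in olfactory bulb and hippocampus and 1355 in the other pair, with 131 and 120 by 2-fold. Without a floor they were 2522, 2242, 455 and 347. With a floor at the 70th percentile, 981 were higher in olfactory bulb and hippocampus, 47 by 2-fold, and 78 were higher by 2-fold in the other pair. Scaled to the hybridisation controls, chosen after seeing the data, they were 4365, 285, 297 and 48. That scaling raises olfactory bulb and hippocampus against the other pair, by less than 2-fold between any 2 arrays. For a given probe set it was thus fixed in advance that the 131 kept a 2-fold gap and the 120 stayed split. Of the 120, 48 kept a 2-fold gap. Leaving out each array in turn, which makes the split easier to meet, gave 2506 to 3084, 2255 to 2558, 211 to 360 and 197 to 299.

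Scaling to the hybridisation controls turned the median side difference of glycolysis to 0.0273, of endothelial genes to 0.0476, of neurotrophic factors to 0.0006, of TGF-beta genes to 0.0523, of ribosomal proteins to 0.23, of radial glia genes to 0.0115, of proteasome subunits to 0.40, of heat shock and unfolded protein genes to 0.44, of cell death genes to 0.22, of reactive astrocyte genes to 0.48, of oligodendrocyte genes to 0.37, of smooth muscle genes to 0.33, of neuronal genes to 0.14 and of axon guidance genes to 0.16, all from below 0. Leaving out each array in turn gave medians that crossed 0 for fibroblast genes (-0.18 to 1.46), endothelial genes (-0.28 to 0.0198), matrix metalloproteinases (-0.28 to 0.64), cytokines (-0.39 to 0.0006), neurotrophic factors (-0.35 to 0.0392), S100, annexin and galectin genes (-0.0217 to 0.13), radial glia genes (-0.84 to 0.0414), scavenger receptors (-0.0317 to 0.46) and astrocyte genes (-0.0752 to 0.96). The cause was not tested. Splits with signals near the floor are limited by background.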
